A study of Mus musculus with 8 samples.

Results

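The semaphorins, the plexins and the plexin domain-containing genes Plxdc1 and Plxdc2 were examined in neutrophils sorted from mouse mammary tumours. The members are the protein-coding genes of the deposited count table whose symbols belong to semaphorin classes 3 to 7, to plexins A to D, or are Plxdc1 or Plxdc2: 31 of 54532 genes, made up of 20 semaphorins, 9 plexins and 2 Plxdc genes. The tumours grew in Balb/c mice from 2208L mouse mammary tumour cells placed in a mammary fat pad; once 1 cm across, they were collected and dispersed into single cells. Flow cytometry then gave an ICAM1high and an ICAM1low fraction of tumour-infiltrating neutrophils, both without treatment. ICAM1, or CD54, is the surface ligand of leukocyte beta2 integrins. There are 4 biological replicates of each fraction, 8 libraries in all, with 10328575 to 22751975 counts each. Whether every replicate stands for a separate mouse is not given in the labels. The p-values cover the spread among these samples, which may differ from that among mice.

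Semaphorins are secreted, membrane-spanning or lipid-anchored guidance proteins first described in axons and later in immune cells, where they steer migration and cell contacts. Plexins are their main receptors: the cytoplasmic part of a plexin is a GTPase-activating domain for Rap and Ras proteins, and its activity loosens integrin adhesion and reshapes actin. Secreted class 3 semaphorins mostly need the neuropilins Nrp1 and Nrp2 to signal through A-type plexins. Plxdc1 and Plxdc2, also called TEM7 and TEM7R, share only a small plexin-like domain with plexins and have been described as surface receptors for the secreted protein PEDF.

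The 250 bases upstream of the annotated start are shown for the 3 plexins with the most transcript per length in ICAM1high, Plxnb2, Plxnc1 and Plxnd1, all higher in ICAM1high, and for Plxnb1, the plexin that was lower. Capitals mark GAGGAA, found in sites of the ETS-family factor PU.1, or its reverse complement. Other forms of ETS-family sites were not counted. Sequences are from RefSeq, build GRCm38.p6, and run 5′ to 3′ on the strand of the gene.
Plxnb2, chr15:89180789-89181038, minus strand: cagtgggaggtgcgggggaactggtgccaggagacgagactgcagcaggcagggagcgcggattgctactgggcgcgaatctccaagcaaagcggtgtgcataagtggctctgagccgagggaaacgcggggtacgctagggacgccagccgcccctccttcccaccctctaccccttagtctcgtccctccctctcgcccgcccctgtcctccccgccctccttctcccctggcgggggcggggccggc
Plxnc1, chr10:94944846-94945095, minus strand: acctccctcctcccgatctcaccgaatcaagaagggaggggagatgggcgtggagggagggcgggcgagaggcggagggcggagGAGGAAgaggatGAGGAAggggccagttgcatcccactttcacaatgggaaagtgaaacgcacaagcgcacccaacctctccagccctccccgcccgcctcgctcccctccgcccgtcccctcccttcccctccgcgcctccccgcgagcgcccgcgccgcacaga
Plxnd1, chr6:115995006-115995255, minus strand: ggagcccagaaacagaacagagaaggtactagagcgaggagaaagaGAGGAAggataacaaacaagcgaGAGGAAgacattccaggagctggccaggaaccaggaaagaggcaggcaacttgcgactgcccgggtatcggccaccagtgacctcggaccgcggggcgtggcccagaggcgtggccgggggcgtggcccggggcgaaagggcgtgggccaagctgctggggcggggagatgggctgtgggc
Plxnb1, chr9:109095186-109095435, plus strand: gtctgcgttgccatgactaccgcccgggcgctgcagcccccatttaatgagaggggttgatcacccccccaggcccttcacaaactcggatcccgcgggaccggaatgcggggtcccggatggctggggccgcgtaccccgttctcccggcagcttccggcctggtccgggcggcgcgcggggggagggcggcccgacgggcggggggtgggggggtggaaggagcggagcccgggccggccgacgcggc
The capitals show 2 matches each in Plxnc1 and Plxnd1 and 0 in Plxnb2 and Plxnb1, so the match was not shared by all the plexins that were higher. A single window was used per member, the nearest to the deposited gene start, which lay 37064 bases away for Sema4d and 271370 for Sema3a, while the share over all windows counts every window. Of 24 members with an upstream window, 8 held GAGGAA on either strand, against 23.3% of 32851 windows of this length. It was in 4 of 8 members that were higher and in 2 of 5 that were lower. It was also in 0 of 5 that did not pass and in 2 of 6 that were not tested. Plxdc1, Plxdc2, Plxna1 and Plxna4, all higher in ICAM1high, were among the 7 members without a window. On either strand, the AP-1 letters TGANTCA were in 1 of the 24 windows, that of Sema4c, and the C/EBP letters TTGCNNAA in 1, that of Plxna3, against 6.75% and 9.56% of all windows. Windows of other starts, not counted here, held TGANTCA in Sema4d and Sema6b and TTGCNNAA in Sema4a. The 4 windows shown were rich in G and C, at 64.8% to 75.2%, with a median of 52.4% over all windows.

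Most plexins and both Plxdc genes were higher in ICAM1high, while semaphorins went both ways. Of the 31 members 24 passed the filter on low counts. Of these, 12 were higher in ICAM1high, 6 were lower and 6 did not pass at an adjusted p of 0.05 (edgeR quasi-likelihood test, Benjamini-Hochberg over all genes tested). Among all 14051 genes tested 42.1% were called, 22.6% as higher and 19.6% as lower. The median log2 fold change was 0.54 over the tested members and 0.08 over all tested genes. Plexins accounted for 7 of the higher calls and 1 of the lower ones, both Plxdc genes were higher, and semaphorins gave 3 higher and 5 lower calls. With library totals in place of TMM scaling the higher calls numbered the same in each family, but only 1 semaphorin and 0 plexins were lower. TMM scaling, which corrects for differences in library composition, underlies all values in CPM (counts scaled to a common library size) unless library totals are named. Library totals shifted the median of all genes by 0.68 on the log2 scale and left 5.97% of genes lower and 48.5% higher. Members such as Plxna4 and Plxnb3 passed the filter only through the fraction in which they were high. In bulk libraries of this kind, fewer cells that hold a transcript cannot be told apart from less transcript per cell.

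**Figure D1:**
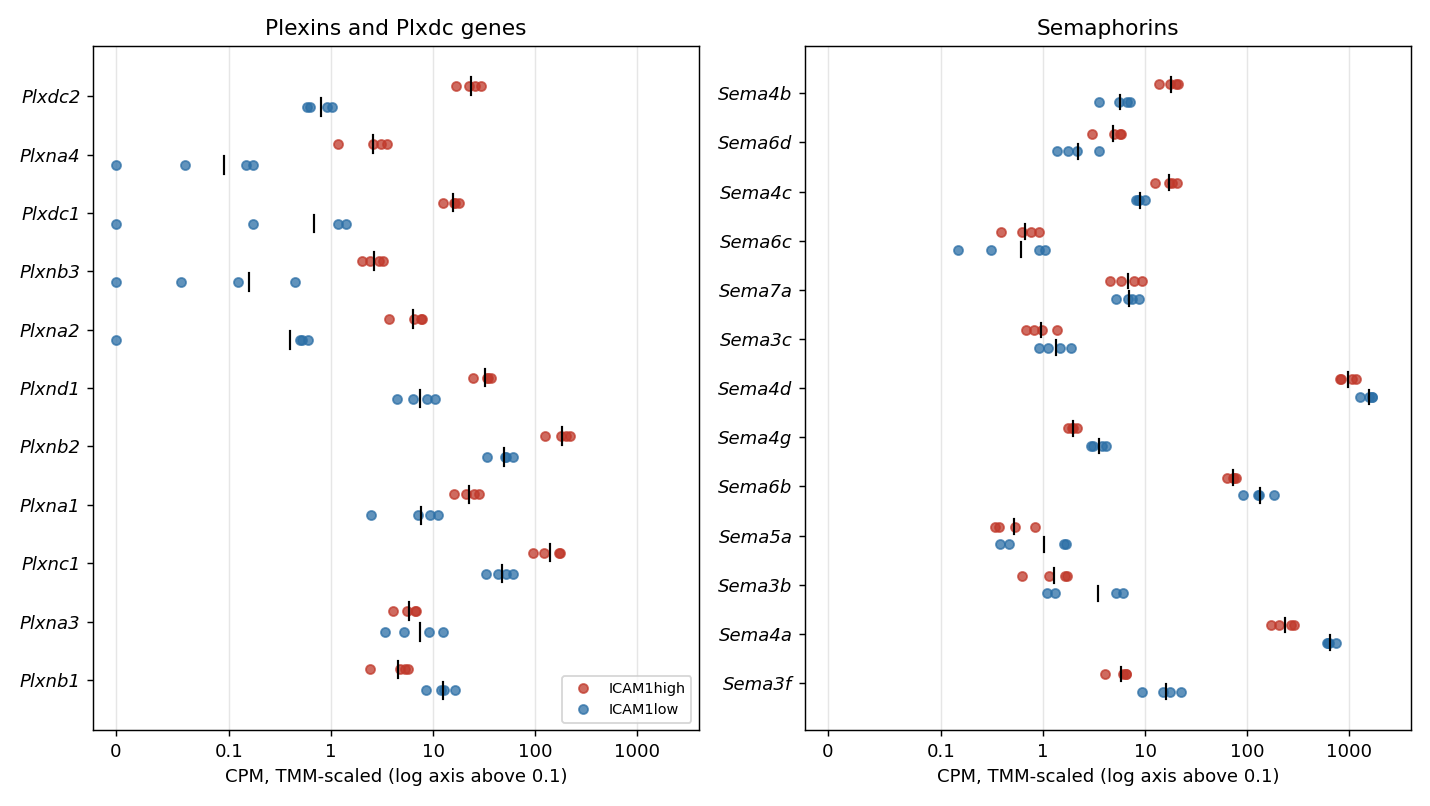
Level of each tested member in each library, in CPM on an axis that is logarithmic above 0.1; red points are the 4 ICAM1high libraries, blue points the 4 ICAM1low libraries and black bars the group means. Plxdc2 lies at 16.8 to 29.6 CPM in ICAM1high and at 0.575 to 1.03 CPM in ICAM1low, whereas Sema4a lies at 170.2 to 290.1 CPM in ICAM1high and at 612 to 743 CPM in ICAM1low.

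The fractions also differed in markers of other cells. Of 22 macrophage and monocyte markers 19 were higher and 1 was lower in ICAM1high. Their summed level was 11270 to 18590 CPM in ICAM1high and 1999 to 3314 CPM in ICAM1low, and every one of the 22 had counts in all 8 libraries. All 20 neutrophil markers were present in every library and were lower in ICAM1high. Ly6g, which defines mouse neutrophils, had 40 to 130 counts in ICAM1high and 155 to 1243 in ICAM1low. The neutrophil list summed to 14410 to 19830 CPM in ICAM1high and 59570 to 106300 CPM in ICAM1low. B cell markers summed to 44.9 to 116 CPM in ICAM1high and 7.61 to 18.8 CPM in ICAM1low (2 of 3 tested higher). T and NK cell markers summed to 24.3 to 35.6 CPM in ICAM1high and 14.3 to 22.4 CPM in ICAM1low (1 of 3 tested higher, 1 lower). Dendritic cell markers summed to 16.5 to 33.6 CPM in ICAM1high and 23.2 to 27.5 CPM in ICAM1low (1 of 6 tested higher, 1 lower). Among markers of type 1 conventional dendritic cells, Xcr1 had 6 to 12 counts in ICAM1high and 0 in all ICAM1low libraries, whereas Clec9a had 32 to 38 counts in ICAM1high and 0 to 83 in ICAM1low. Endothelial markers summed to 72.0 to 79.6 CPM in ICAM1high and 29.9 to 81.6 CPM in ICAM1low (2 of 9 tested higher). Fibroblast and pericyte markers summed to 75.4 to 129 CPM in ICAM1high and 115 to 172 CPM in ICAM1low (3 of 9 tested higher, 1 lower). Epithelial tumour markers were lower in ICAM1high for 5 of 7 tested, with sums of 120 to 181 CPM against 282 to 505 CPM in ICAM1low. Platelet markers summed to 7.12 to 8.98 CPM in ICAM1high and 10.7 to 18.6 CPM in ICAM1low (1 of 2 tested lower). The markers Klrb1c of NK cells and Gp1bb and Gp6 of platelets had 0 counts in all ICAM1low libraries, and Krt5 of basal epithelium had 0 in all ICAM1high libraries. With library totals, 20 macrophage and monocyte markers were higher and 0 lower, and 19 neutrophil markers were lower and 0 higher. Higher and lower calls then numbered 3 and 0 for dendritic cell, 1 and 0 for T and NK cell and 2 and 0 for B cell markers. They were 3 and 0 for endothelial, 5 and 1 for fibroblast and pericyte, 0 and 4 for epithelial tumour and 0 and 0 for platelet markers. The part of these markers in the differences below was not tested.

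Long transcripts were under-represented in 1 library of each fraction. Genes longer than 5 kb took 30.7% of counts in ICAM1high replicate 1 and 40.4% to 43.0% in the other ICAM1high libraries, and 27.2% in ICAM1low replicate 4 against 34.3% to 40.7% in the other ICAM1low libraries. Plexins are long, with a median length of 8349 bases against 3990 over all tested genes. ICAM1high replicate 1 was the lowest of its group for 8 of 9 plexins, and ICAM1low replicate 4 was the lowest of its group for 9 of 9. Over all 14051 tested genes these libraries were the lowest of their group for 5520 and 5479. With both libraries left out, 7 plexins and 2 Plxdc genes were still called higher, 1 plexin was lower, and 3 semaphorins were higher and 6 lower.

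Plexins, the receptors, were together about 3 times as abundant in ICAM1high, and Plxnb2 and Plxnc1 made up most of them in both fractions. Summed per kilobase of gene length, the 9 plexins stood at 34.1, 56.1, 59.8 and 47.7 CPM per kb in ICAM1high replicates 1 to 4 and at 19.7, 16.51, 17.98 and 10.43 CPM per kb in ICAM1low replicates 1 to 4, with a ratio of means of 3.06. These sums did not overlap. Plxnb2 and Plxnc1 together held 81.4 ± 1.87% of this sum in ICAM1high and 74.9 ± 4.24% in ICAM1low (SD, n = 4).

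Plxnb2 (ENSMUSG00000036606, chr15:89155549-89180788, minus strand, mm10), which encodes the widely expressed plexin-B2, a receptor of Sema4c and other class 4 semaphorins, measured 125, 201, 221 and 179.6 CPM in the ICAM1high replicates and 51.1, 51.4, 60.5 and 33.3 CPM in the ICAM1low replicates. Every ICAM1high library was above every ICAM1low library, and the log2 fold change was 1.89 (adjusted p = 0.000163, SE 0.23). Plxnc1, the receptor of Sema7a, measured 94.1, 172, 173 and 121 CPM in ICAM1high and 61.0, 43.4, 51.8 and 32.7 CPM in ICAM1low. Plxnc1 was higher by 1.57 on the log2 scale (adjusted p = 0.000788, SE 0.25). The groups again did not overlap, although ICAM1high replicate 1 came closer to ICAM1low than the rest. Plxnd1, the receptor of Sema3e and best known in blood vessels, was at 24.6, 36.6, 34.7 and 33.7 CPM in ICAM1high and 8.66, 10.5, 6.33 and 4.43 CPM in ICAM1low. Its log2 fold change was 2.11 (adjusted p = 0.00022, SE 0.27). Of the 9 endothelial markers tested, Kdr (log2 fold change 2.05, adjusted p = 0.000802) and Eng (1.68, adjusted p = 0.00981) were also higher in ICAM1high, and 7 did not pass, the endothelial cadherin Cdh5 among them (-1.06, adjusted p = 0.127). Their part in the difference of Plxnd1 was not tested.

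Among A-type plexins 3 of 4 were higher in ICAM1high. Plxna1, a receptor of Sema6d and of class 3 semaphorins that also pairs with Trem2 and Tyrobp in myeloid cells, was at 15.9, 21.2, 28.4 and 25.2 CPM in ICAM1high and at 11.2, 7.16, 9.38 and 2.43 CPM in ICAM1low. The groups did not overlap, but the gap was narrow, and the log2 fold change was 1.59 (adjusted p = 0.00819, SE 0.39). Plxna2 and Plxna4, receptors of class 6 and class 3 semaphorins, were close to absent in ICAM1low. Plxna2 had 89, 151, 156 and 102 counts in ICAM1high and 8, 8, 9 and 0 counts in ICAM1low. Its log2 fold change was 3.98 (adjusted p = 0.000586, SE 0.60). Plxna4 had 28, 73, 73 and 34 counts in ICAM1high and 2, 1, 3 and 0 counts in ICAM1low, a log2 fold change of 4.68 (adjusted p = 0.000538, SE 0.70). The counting of strands is not stated, so reads of Plxna4 and of the antisense gene Plxna4os1, which shares 0 exon bases with it, may not be fully separated. Plxna4os1 had 63, 17, 42 and 9 counts in ICAM1high and 3, 7, 0 and 10 in ICAM1low. Counts this low in ICAM1low set the direction but leave the size of the fold loosely fixed. Plxna3 did not pass: it was at 4.03, 5.58, 6.61 and 6.79 CPM in ICAM1high and 12.3, 8.99, 5.12 and 3.37 CPM in ICAM1low. The groups overlapped, and the log2 fold change was -0.37 (adjusted p = 0.457, SE 0.38), or 0.28 with library totals.

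The B-type plexins split. Plxnb1 (ENSMUSG00000053646, chr9:109095389-109119917, plus strand), a receptor of Sema4d, was at 2.39, 4.68, 5.70 and 5.34 CPM in ICAM1high and at 16.2, 11.8, 12.9 and 8.55 CPM in ICAM1low. Every ICAM1high library was below every ICAM1low library, and the log2 fold change was -1.45 (adjusted p = 0.00378, SE 0.31). With library totals it was -0.77 and did not pass (adjusted p = 0.0749). Plxnb3, related to Plxnb1 and Plxnb2, went the other way, with 72, 47, 50 and 42 counts in ICAM1high and 6, 2, 1 and 0 counts in ICAM1low. It was higher by 4.11 on the log2 scale (adjusted p = 0.00143, SE 0.73), and by 5.31 without ICAM1low replicate 1. The ratio of 2 genes of 1 library does not depend on scaling: per kilobase, Plxnb1 amounted to 1.53%, 1.88%, 2.07% and 2.39% of Plxnb2 in the ICAM1high replicates and to 25.6%, 18.5%, 17.2% and 20.6% in the ICAM1low replicates. This ratio moved with both genes, and Plxnb2 was higher by 1.89 on the log2 scale, or by 2.57 with library totals. By itself it does not show that Plxnb1 was lower.

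**Figure D2:**
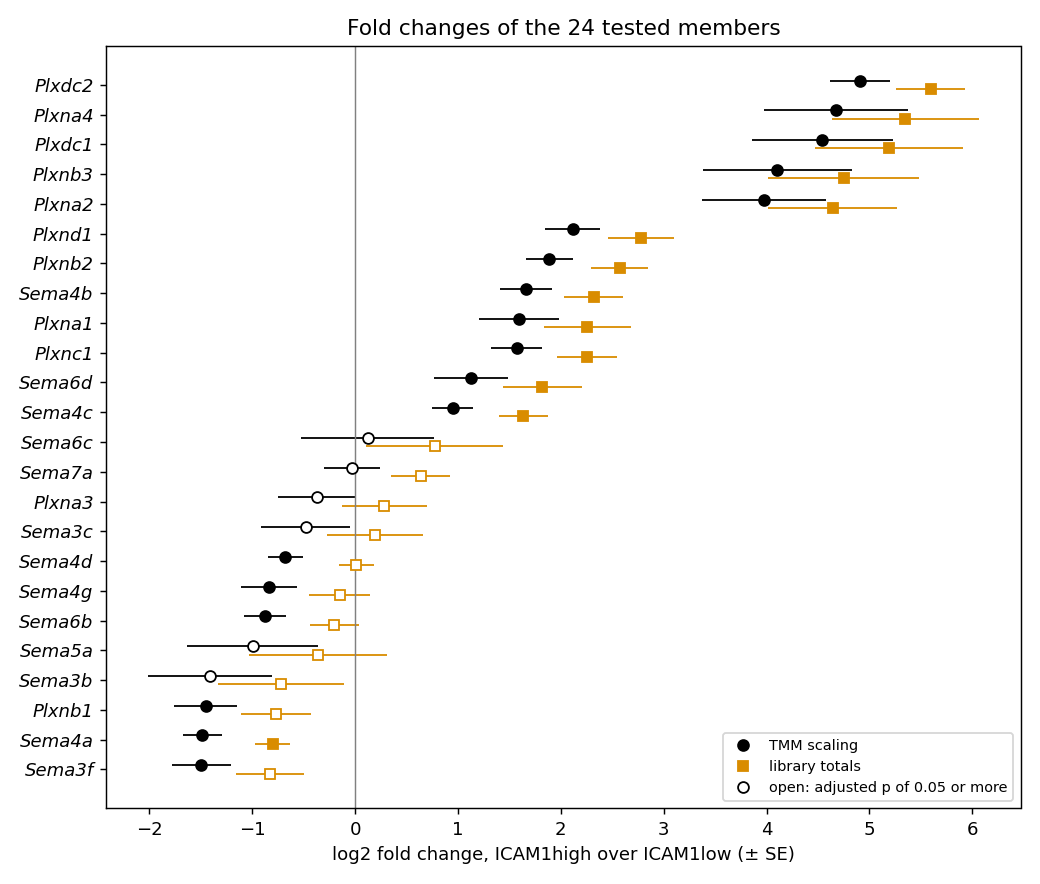
Log2 fold change of ICAM1high over ICAM1low for the 24 tested members, with standard errors, under TMM scaling (black circles) and library totals (orange squares); filled symbols have an adjusted p under 0.05. Plxdc2 at 4.91 lies at the top and Sema3f at -1.49 at the bottom under TMM, and Sema4d is at -0.68 with TMM and at 0.012 with library totals.

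Both Plxdc genes were much higher in ICAM1high. Plxdc2 (ENSMUSG00000026748, chr2:16356304-16755839, plus strand) measured 16.8, 29.6, 22.5 and 25.6 CPM in ICAM1high and 1.03, 0.917, 0.575 and 0.624 CPM in ICAM1low. It was higher by 4.91 on the log2 scale (adjusted p = 2.61e-06, SE 0.29). The groups lay far apart, and the value ran from 4.76 to 5.06 when single libraries were left out. Plxdc1 (ENSMUSG00000017417, chr11:97923238-97986444, minus strand), which was first described in tumour endothelium, had 305, 418, 333 and 212 counts in ICAM1high and 19, 19, 3 and 0 counts in ICAM1low. The log2 fold change was 4.54 (adjusted p = 0.000556, SE 0.68). With limma-voom it was 5.66. In ICAM1low, replicates 1 and 2 held Plxdc1 at 1.39 and 1.16 CPM and replicates 3 and 4 at 0.173 and 0 CPM. The libraries fall into 2 runs of library numbers, replicates 1 and 2 and replicates 3 and 4. Within replicates 1 and 2 the log2 fold change of Plxdc1 was 3.57 (adjusted p = 0.000375), and within replicates 3 and 4 it was 7.34 (adjusted p = 0.00707). Per kilobase both genes were at similar levels in ICAM1high, Plxdc2 at 3.40 ± 0.773 and Plxdc1 at 3.24 ± 0.458 CPM per kb (SD, n = 4).

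Semaphorins, the ligands, were dominated by Sema4d, Sema4a and Sema6b, all lower in ICAM1high under TMM scaling. These 3 genes held 94.1 ± 0.646% of the semaphorin sum per kilobase in ICAM1high and 97.1 ± 0.641% in ICAM1low (SD, n = 4). The sum of all 20 semaphorins was 186, 169, 208 and 235 CPM per kb in ICAM1high replicates 1 to 4 and 393, 323, 381 and 372 CPM per kb in ICAM1low replicates 1 to 4. The gap between the fractions in these sums rests on TMM scaling. Sema4d, which held 63.1% of the sum in ICAM1high and 54.9% in ICAM1low, had a log2 fold change of 0.012 with library totals. The semaphorin sum was also divided by the plexin sum of the same library. This ratio came to 5.44, 3.02, 3.47 and 4.93 in ICAM1high and 20, 19.6, 21.2 and 35.6 in ICAM1low. It is free of library scaling and did not overlap between the fractions. It also moved with the plexin sum, whose ratio of means was 3.06 under TMM scaling. The ratio was highest in ICAM1high replicate 1 and in ICAM1low replicate 4. There genes longer than 5 kb took 30.7% and 27.2% of counts, the least of each fraction. The part of transcript length in the ratio was not tested.

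**Figure D3:**
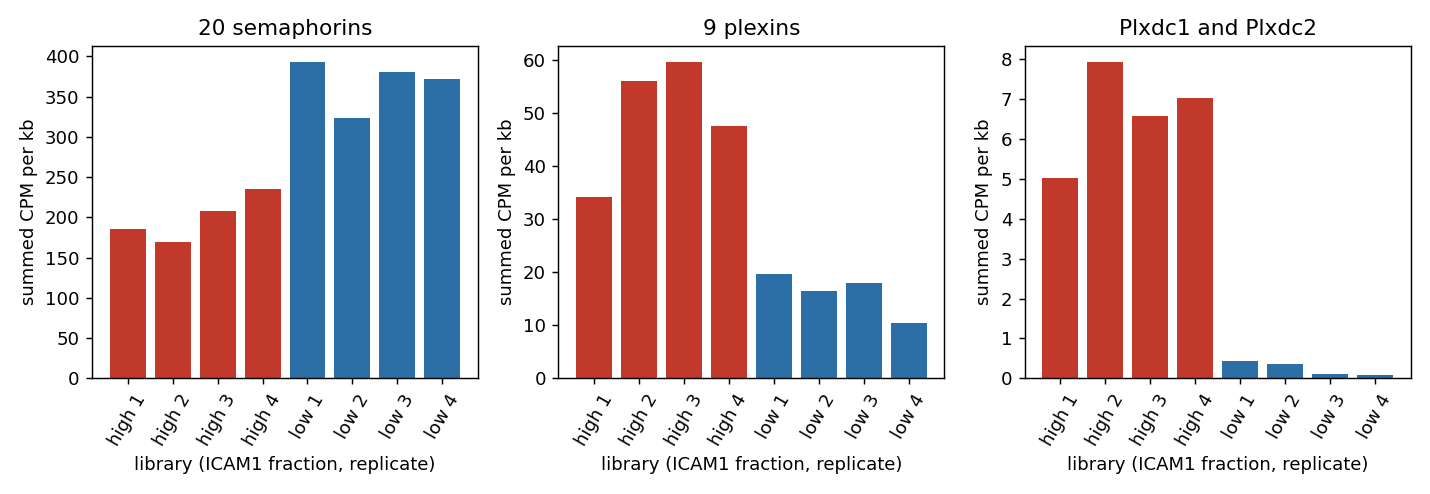
Sum of CPM per kilobase of gene length over the 20 semaphorins, the 9 plexins and the 2 Plxdc genes in each library, with ICAM1high in red and ICAM1low in blue; bars start at 0. Under TMM scaling, semaphorin sums were 169 to 235 in ICAM1high and 323 to 393 in ICAM1low. Plexin sums were 34.1 to 59.8 in ICAM1high and 10.4 to 19.7 in ICAM1low.

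Class 4 semaphorins span the membrane and can be shed; 5 of the 6 were tested and all 5 passed, in both directions. Sema4d (ENSMUSG00000021451, chr13:51685529-51793747, minus strand), the first semaphorin found on leukocytes and a ligand of Plxnb1 and Cd72, was the most abundant member per kilobase in both fractions, at 836, 824, 1060 and 1157 CPM in ICAM1high and 1692, 1270, 1682 and 1565 CPM in ICAM1low. The groups did not overlap, with a log2 fold change of -0.68 (adjusted p = 0.0092, SE 0.17), but with library totals it was 0.012 (adjusted p = 0.958). Sema4a (ENSMUSG00000028064, chr3:88435959-88461182, minus strand), known for its roles in T cell priming, was next at 272, 170.2, 204 and 290.1 CPM in ICAM1high and 624, 612, 641 and 743 CPM in ICAM1low. Its log2 fold change was -1.48 (adjusted p = 0.000231, SE 0.19), and Sema4a was the member still called lower with library totals (-0.80, adjusted p = 0.00243). Sema4b was at 17.6, 13.6, 20.3 and 20.9 CPM in ICAM1high and 7.19, 6.60, 5.58 and 3.56 CPM in ICAM1low. Sema4c, a ligand of Plxnb2, was at 12.6, 17.0, 20.8 and 18.5 CPM in ICAM1high and 8.51, 10.1, 8.80 and 8.24 CPM in ICAM1low. Both were higher without overlap, by 1.66 (adjusted p = 0.000625, SE 0.25) for Sema4b and 0.95 (adjusted p = 0.00369, SE 0.20) for Sema4c on the log2 scale. Sema4g was at 1.95 ± 0.171 CPM in ICAM1high and 3.51 ± 0.585 CPM in ICAM1low (SD, n = 4), and its log2 fold change was -0.84 (adjusted p = 0.0316). The call was lost with library totals (-0.15) or with the replicate number added to the fit as a block (adjusted p = 0.103), and without any of ICAM1high replicates 2, 3 and 4 and ICAM1low replicate 1 (adjusted p of 0.064 to 0.0819).

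Class 6 semaphorins, also membrane-spanning and mostly ligands of A-type plexins, differed from one another. Sema6b was at 63.1, 78.4, 73.2 and 74.1 CPM in ICAM1high and 182, 129.6, 128 and 90.6 CPM in ICAM1low, without overlap. Its log2 fold change of -0.88 (adjusted p = 0.00617, SE 0.20) became -0.20 with library totals (adjusted p = 0.491). Sema6d was at 3.04, 5.66, 4.97 and 5.80 CPM in ICAM1high and 1.76, 2.14, 3.57 and 1.37 CPM in ICAM1low. These groups overlapped, and the log2 fold change was 1.13 (adjusted p = 0.0273, SE 0.36). It did not pass with a replicate block (adjusted p = 0.0557) nor without ICAM1high replicate 2, 3 or 4 or ICAM1low replicate 1 or 2 (adjusted p of 0.0615 to 0.0821). Sema6c had 9 to 19 counts in ICAM1high and 2 to 17 in ICAM1low, with a log2 fold change of 0.12 (adjusted p = 0.896, SE 0.65).

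Secreted class 3 semaphorins were scarce. Sema3f, a ligand that uses Nrp2, was the most abundant of them, at 4.03, 6.43, 6.03 and 6.48 CPM in ICAM1high and 15.04, 22.75, 17.43 and 9.42 CPM in ICAM1low. Every ICAM1high library was below every ICAM1low library. The log2 fold change was -1.49 (adjusted p = 0.00221, SE 0.29), or -0.83 with library totals (adjusted p = 0.0521). Sema3b was at 1.28 ± 0.506 CPM in ICAM1high and 3.42 ± 2.59 CPM in ICAM1low (SD, n = 4). Among the ICAM1low libraries, replicates 1 and 3 held 6.09 and 5.18 CPM and replicates 2 and 4 held 1.10 and 1.31 CPM. Its log2 fold change of -1.41 (adjusted p = 0.0823, SE 0.60) did not pass. It passed with DESeq2 (adjusted p = 0.0372), without ICAM1low replicate 2 (adjusted p = 0.0402) and without ICAM1low replicate 4 (adjusted p = 0.0309). Sema3c, with 9 to 32 counts in ICAM1high and 16 to 31 in ICAM1low, was at -0.48 (adjusted p = 0.397, SE 0.43). Sema7a, the lipid-anchored ligand of Plxnc1 and beta1 integrins, was at 9.30, 5.83, 7.72 and 4.50 CPM in ICAM1high and 8.66, 6.73, 7.42 and 5.18 CPM in ICAM1low. The groups overlapped, with a log2 fold change of -0.03 (adjusted p = 0.945, SE 0.27). Sema5a, a membrane-spanning class 5 member with 8 to 11 counts in ICAM1high and 6 to 26 in ICAM1low, was at -0.998 (adjusted p = 0.234, SE 0.64).

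The other 7 members, all semaphorins, were near 0 and were not tested, with at most 23 counts in any library. Sema4f had 3 to 12 counts in ICAM1high and 5 to 10 in ICAM1low, and Sema6a had 1 to 11 in ICAM1high and 0 to 23 in ICAM1low. Sema3g had 0 to 8 counts in ICAM1high and 0 to 15 in ICAM1low, while Sema3a, Sema3d and Sema5b reached at most 6, 5 and 5 counts in any library. Sema3e, the ligand of Plxnd1, had 0 counts in all 8 libraries. From 3 counts of each library total, without TMM scaling, this allows up to 0.132 to 0.291 CPM per library, counting error only. Without the filter, 0 of the 6 with any counts passed, the smallest adjusted p being 0.387 for Sema5b.

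Of the co-receptors and other partners that semaphorins and plexins use, 7 of 12 tested were higher in ICAM1high, 3 were lower and 2 did not pass, where 22.6% of all tested genes were higher and 19.6% lower. The median over the 12 was 1.39 on the log2 scale, or 2.09 with library totals, where 7 were higher and 1 lower. The neuropilin Nrp1, a co-receptor of class 3 semaphorins and VEGF, was at 19.4, 47.8, 54.5 and 42.9 CPM in ICAM1high and 1.69, 2.02, 1.84 and 1.75 CPM in ICAM1low (log2 fold change 4.49, SE 0.33, adjusted p = 7.37e-06). Nrp2, the neuropilin used by Sema3f, was at 27.8, 54.2, 60.1 and 58.1 CPM in ICAM1high and 6.97, 10.2, 5.58 and 9.49 CPM in ICAM1low (2.63, SE 0.29, adjusted p = 8.51e-05). Both neuropilins were lowest in replicate 1 among the ICAM1high libraries. Cd72, a Sema4d receptor known from B cells and also found on macrophages, averaged 186 ± 37.2 CPM in ICAM1high and 8.31 ± 1.70 CPM in ICAM1low (SD, n = 4). Trem2, a lipid receptor of macrophages that pairs with Plxna1, averaged 137 ± 41.7 CPM in ICAM1high and 5.87 ± 1.75 CPM in ICAM1low (SD, n = 4). On the log2 scale Cd72 was higher by 4.49 (SE 0.23, adjusted p = 1.22e-06) and Trem2 by 4.55 (SE 0.29, adjusted p = 3.74e-06). Trem2 is also in the macrophage list. The 3 that were lower, singled out with their values known, were Erbb2 at -1.36, the adaptor Tyrobp at -1.21 and Met at -0.98. With library totals these became -0.67, -0.51 and -0.30, and Erbb2 alone still passed.

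**Figure D4:**
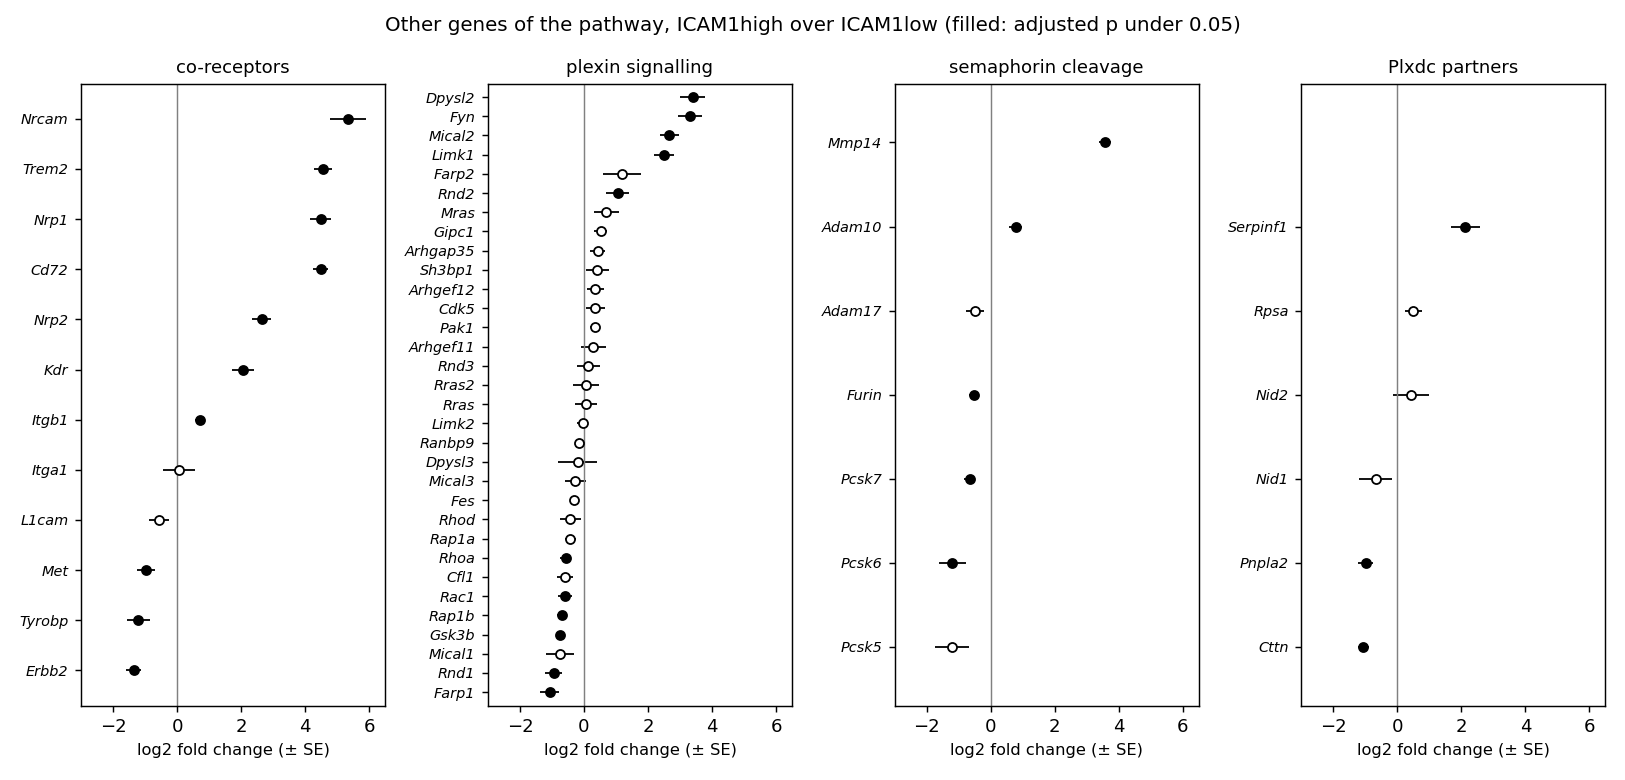
Log2 fold change of ICAM1high over ICAM1low with standard errors under TMM scaling for tested co-receptors, plexin signalling genes, proteases that cleave semaphorins and partners of Plxdc proteins; filled points have an adjusted p under 0.05. Co-receptors reach 5.34 in Nrcam, while most plexin signalling genes lie near 0.

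Of 32 tested signalling genes downstream of plexins 5 were higher, 6 lower and 21 did not pass, shares no larger than the 22.6% higher and 19.6% lower over all tested genes. They had a median log2 fold change of 0.07 that became 0.75 with library totals, where 16 were higher and 0 lower. Dpysl2, a CRMP protein that binds tubulin, was at 47.1, 19.8, 20.9 and 17.6 CPM in ICAM1high and 1.47, 2.32, 3.74 and 2.43 CPM in ICAM1low, with ICAM1high replicate 1 far above its group. The log2 fold change was 3.39 (adjusted p = 0.000127, SE 0.40) and 2.92 without that library. The tyrosine kinase Fyn averaged 18.4 ± 2.84 CPM in ICAM1high and 1.85 ± 1.02 CPM in ICAM1low (SD, n = 4). Mical2, which oxidises actin, averaged 14.3 ± 3.58 CPM in ICAM1high and 2.24 ± 0.789 CPM in ICAM1low (SD, n = 4). On the log2 scale Fyn was higher by 3.31 (SE 0.38) and Mical2 by 2.67 (SE 0.31).

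Among 7 proteases that cleave semaphorins, 2 were higher and 3 lower, where 22.6% of all tested genes were higher and 19.6% lower. The list had a median of -0.53 that became 0.15 with library totals, where 2 were higher and 0 lower. Mmp14, the membrane metalloproteinase that sheds Sema4d, was at 263 ± 28.0 CPM in ICAM1high and 22.0 ± 4.18 CPM in ICAM1low (SD, n = 4; log2 fold change 3.57, SE 0.18). Adam10, a sheddase, was at 0.78 (adjusted p = 0.0123, SE 0.21; adjusted p = 0.0512 with a replicate block). Pcsk7, a proprotein convertase, was at -0.65 (adjusted p = 0.0128, SE 0.18; adjusted p = 0.0701 with a replicate block), which turned to 0.030 with library totals. Of 6 partners of Plxdc proteins 1 was higher and 2 were lower, 3 called in all, where 42.1% of all tested genes were called. The list had a median of -0.13 that became 0.54 with library totals, where 2 were higher and 0 lower. The actin-binding Cttn was at -1.06 (adjusted p = 0.000948, SE 0.18) and the PEDF receptor Pnpla2 at -0.995 (adjusted p = 0.00506, SE 0.22), and neither passed with library totals (-0.38 and -0.31). Rpsa, also described as a PEDF receptor, was at 0.50 (adjusted p = 0.174, SE 0.28) and passed with library totals at 1.18. Serpinf1, which encodes PEDF and was singled out with its value known, was at 2.73 ± 0.762 CPM in ICAM1high and 0.624 ± 0.276 CPM in ICAM1low (SD, n = 4), with a log2 fold change of 2.12 (adjusted p = 0.00412, SE 0.45).

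Icam1, which encodes the sorted marker, averaged 1459 ± 202 CPM in ICAM1high and 848 ± 214 CPM in ICAM1low (SD, n = 4), without overlap (log2 fold change 0.78, adjusted p = 0.0105). The groups did not overlap for 11 members that were higher and 6 that were lower, against 23.4% and 18% of all tested genes.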

How the data were processed

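Each of the 8 mRNA sequencing libraries was made with 100 ng of RNA, per the labels. The authors deposited 1 table of whole-number read counts for 54532 genes, not normalized, with positions and, as an other quantity, the gene length in bases per the file headers; HISAT2 and mm10 are named per the submitters' processing notes, while the sources used here name no version, counting tool, annotation release or strand setting. All 31 member IDs had the same position in GENCODE M21, and 0 shared exon bases with another gene that held at least 10% of their counts.

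From the counts, R 4.3.3 with edgeR 4.0.16 was used: filterByExpr by group, TMM scaling, the quasi-likelihood F test and Benjamini-Hochberg adjustment over 14051 genes. Fold changes are ICAM1high over ICAM1low, the standard error is the absolute log2 fold change over the root of the F statistic, CPM uses TMM-scaled library sizes, and CPM per kb divides by the deposited gene length, which need not match the isoforms present. Alternatives were DESeq2 1.42.0, limma-voom (limma 3.58.1), other scalings, filters, a robust fit and a replicate block. Others were the grouping by library number (replicates 1 and 2 against 3 and 4) and libraries left out.

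All members are accounted for; of each pathway list the 3 genes with the smallest p and an average log2 CPM of at least 1 are named, besides Nrp1, Nrp2 and Icam1. Members and lists were chosen with earlier results of these data known.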

Additional observations from a re-analysis of the deposited data

Results flagged for a closer look

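In 76 groups of 4 libraries, the tested members and named genes in each fraction, 2 libraries lay far from the rest of their group by Dixon's criterion, and chance alone flags about 1 in 20 groups. Dpysl2 was at 47.1 CPM in ICAM1high replicate 1, against 17.6 to 20.9 CPM in the other ICAM1high libraries. Plxna2 was at 0 CPM in ICAM1low replicate 4, with 0 counts, against 0.489 to 0.587 CPM in the other ICAM1low libraries. By library totals, without the TMM scaling of these values, a count of 0 allows up to 0.132 CPM there.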

How the results depend on the processing

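Of 18 members called, 10 kept direction and call under every alternative run that tested them: 9 higher and, as lower, Sema4a. With library totals 6818 of all tested genes were higher and 839 lower, and the lower calls numbered 1 among members, 1 among co-receptors, 0 among signalling genes, 0 among cleavage genes and 0 among Plxdc partners, with 16 signalling genes and 2 Plxdc partners higher; Plxna3 turned to 0.28, Sema3c to 0.19, Sema4d to 0.012, Sema7a to 0.64 and Pcsk7 to 0.030. The cause was not tested beyond the shift of 0.68 in the median of all genes. Replicates 1 and 2 alone, with fewer samples, gave 1708 genes higher and 1416 lower, 1 cleavage gene higher and 0 lower, 1 signalling gene and 1 Plxdc partner lower, and Sema6c at -0.27. Replicates 3 and 4 alone gave 1658 genes higher and 1604 lower, 1 member lower, 0 cleavage genes lower, 0 Plxdc partners higher, Plxna3 at 0.61, Sema5a at 0.64 and Rpsa at -0.15. Plxna1, Sema4d, Sema4g and Sema6d passed in neither pair of replicates alone, Sema4c not in the first, and Plxnb1, Sema3f and Sema6b not in the second. With the filter of 50 counts in 4 libraries, 0 Plxdc partners were higher. Without both ICAM1high replicate 1 and ICAM1low replicate 4, 11 signalling genes were lower and Sema6c was at -0.10 and Sema7a at -0.36. Leaving out single libraries moved lower calls to between 3 and 8 signalling genes and between 1 and 4 cleavage genes, Sema6c to between -0.18 and 0.50 and Sema7a to between -0.24 and 0.11.

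With a replicate block 11 members were higher and 5 lower, 1 cleavage gene was higher and 1 lower, and 3 signalling genes were lower. Library numbers are shared between the fractions, but the labels do not say whether same-numbered libraries came from the same tumour. For that reason the main fit held no pairing. Correlations of same-numbered libraries after removal of group means were -0.57, 0.21, 0.18 and -0.30. ICAM1high replicate 1 and ICAM1low replicate 4, with different numbers, reached 0.53. So few values cannot decide whether same-numbered libraries were paired.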
